A study of Mus musculus with 6 samples.

Results

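Fibroblasts of the injured enthesis of the rotator cuff, where tendon joins bone, were examined for the subset that carried the chemokine gene Cxcl5 and the acute phase gene Saa3. Fibroblasts are the collagen-making cells of connective tissue, and during inflammation they also secrete chemokines that draw neutrophils and monocytes, acute phase proteins and matrix-degrading enzymes, largely under the transcription factors NF-kappaB and C/EBP. CXCL5 attracts neutrophils through the receptor CXCR2, serum amyloid A3 is an acute phase protein made outside the liver, and CXCL12 retains leukocytes and progenitors through CXCR4. The cells were chosen by measured counts of unique molecular identifiers (UMIs, the number of distinct RNA molecules read for a gene in a cell). A barcode needed at least 2000 UMIs, at least 200 genes and at most 10% mitochondrial UMIs, and Col1a1, Col1a2 and Col3a1 together had to reach 0.5% of its UMIs, with S100a8 and S100a9 together under 1% and no UMI of the leukocyte gene Ptprc or the endothelial gene Cdh5. These cells are called collagen-positive below. The Cxcl5 Saa3 cells among them had at least 10 UMIs of Cxcl5 and Saa3 together, fewer than 5 of the cartilage gene Col2a1, none of the tendon gene Tnmd and fewer than 2 of the division genes Mki67 and Top2a. They numbered 1428 of 13415 collagen-positive cells and of 64599 barcodes past the general limits, and each gene used to choose them is given as a description only.

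The libraries came from mice aged 12 to 14 weeks, 7 days after the supraspinatus tendon had been cut from the humerus and sewn back, in 3 libraries from wild-type controls (C57BL/6) and 3 from Nlrp3-/- mice, which lack the sensor protein of the NLRP3 inflammasome in every cell. Entheses were pooled before dissociation, and the labels give neither the number of animals per library nor their sex, so p-values measure only the spread between libraries, which may be technical. All 6 libraries had the injury and the repair, so no uninjured tissue stands beside them. The groups were taken from the titles, since the genotype field of Nlrp3-/- replicates 2 and 3 names other Nlrp genes.

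The labels were checked first. Nlrp3 had 60.6 to 98.7 CPM (UMIs of a gene per 1000000 UMIs of the cells summed) in the summed cells of each wild-type library and 0 UMIs in each Nlrp3-/- library. Xist, expressed from the inactive X chromosome of females, stood at 787 to 941 CPM in the Nlrp3-/- libraries and at 0.0402 to 0.1002 CPM in the wild-type libraries, while the Y-linked genes Ddx3y and Eif2s3y had UMIs in the wild-type cells and none in the Nlrp3-/- cells. Sex and genotype therefore cannot be told apart in any comparison of the groups, nor can the source of the strains. The libraries held 97042713 to 134901999 UMIs. Nlrp3-/- replicate 1 stood apart in depth, with 69.8% of its UMIs in cells against 88.7% to 92.5% elsewhere and a median of 4128 UMIs in its other collagen-positive cells against 12715 to 16472. Barcodes found in more than 1 library numbered 436, and 15 of the Cxcl5 Saa3 cells had such a barcode, none of them in 2 libraries as a Cxcl5 Saa3 cell.

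The genes that lead the description, with their promoters, are shown first. Cxcl5 lies in an array of CXC chemokine genes on mouse chromosome 5 (GRCm38, chr5:90759360-90761624, plus strand), with Cxcl3 at chr5:90786103-90789600, Cxcl1 at chr5:90891241-90893115 and Cxcl2 at chr5:90903871-90905938, and Saa3 lies at chr7:46711998-46715700 on the minus strand. RefSeq promoter sequences (build GRCm38.p6, 250 bases before to 50 after the start) were at hand for 7 of 9 genes, namely Saa3 and 6 of the 7 genes that were at least 2-fold higher in the Cxcl5 Saa3 cells of every library, and Cxcl5 and Hp had none. Saa3, Slpi and Cxcl12 are printed because they show the contrast in letters between an acute phase gene, a secreted protease inhibitor and the chemokine Cxcl12: 5′ to 3′ on the gene's strand, with a C/EBP motif (TTGCNNAA on either strand) in capitals.
Saa3 promoter, chr7:46715627-46715926, minus strand: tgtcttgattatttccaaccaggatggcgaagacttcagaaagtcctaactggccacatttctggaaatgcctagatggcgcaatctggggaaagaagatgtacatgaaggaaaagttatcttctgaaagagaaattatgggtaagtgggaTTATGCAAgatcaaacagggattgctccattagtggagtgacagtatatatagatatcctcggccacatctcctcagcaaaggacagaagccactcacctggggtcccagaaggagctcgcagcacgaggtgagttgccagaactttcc
Slpi promoter, chr2:164356458-164356757, minus strand: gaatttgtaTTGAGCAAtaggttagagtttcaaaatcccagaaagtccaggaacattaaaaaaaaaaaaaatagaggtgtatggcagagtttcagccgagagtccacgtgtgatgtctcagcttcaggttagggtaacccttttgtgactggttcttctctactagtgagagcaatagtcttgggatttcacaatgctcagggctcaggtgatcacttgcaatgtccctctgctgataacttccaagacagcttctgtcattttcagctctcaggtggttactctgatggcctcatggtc
Cxcl12 promoter, chr6:117168285-117168584, plus strand: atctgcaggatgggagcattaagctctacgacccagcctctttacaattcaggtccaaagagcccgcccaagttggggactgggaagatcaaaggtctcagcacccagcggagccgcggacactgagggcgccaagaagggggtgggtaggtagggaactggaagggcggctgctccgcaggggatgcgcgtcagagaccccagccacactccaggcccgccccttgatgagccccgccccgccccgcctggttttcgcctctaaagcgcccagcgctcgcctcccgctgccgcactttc

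The Saa3 match lies 99 to 92 bases before the start and the Slpi match 241 to 234 bases before it, and the Cxcl12 window holds no motif searched. Of all 32851 promoters of 300 bases, 10.8% hold the C/EBP motif. A kappaB motif, the site of NF-kappaB, was found in Cyp1b1, 188 to 179 bases before the start, and in Il4ra, 20 to 29 bases after it, against 8.46% of all promoters. The AP-1 motif TGANTCA was in none of the 7 windows and in 7.81% of all, and a TATAAA box was in Tnfsf11 alone, 32 to 27 bases before the start, against 13.6% of all. Motifs were searched on both strands and a match is a description of letters, not of a bound site.

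The Cxcl5 Saa3 cells took a larger share of the collagen-positive cells in each wild-type library than in any Nlrp3-/- library. They were 18.4% (Wilson 95% confidence interval 16.3% to 20.7%), 29.1% (27.3% to 30.9%) and 8.96% (7.62% to 10.5%) of these cells in wild-type replicates 1 to 3, or 221, 726 and 134 cells. In Nlrp3-/- replicates 1 to 3 they were 2.93% (2.39% to 3.58%), 5.18% (4.29% to 6.24%) and 4.91% (4.20% to 5.74%), or 92, 104 and 151 cells. The groups did not overlap, and wild-type replicate 2 alone gave 726 of the 1428 cells. The mean share was 18.8% ± 10.1 (SD, n = 3) in wild-type and 4.34% ± 1.23 (SD, n = 3) in Nlrp3-/- libraries, 4.34-fold higher in wild-type. An exact two-sided permutation test gave a p of 0.1, the smallest that 20 assignments can give. The test could therefore not decide, and it was run on counts that the rule itself used, so no conclusion is drawn from it. Since these cells were chosen for description with these values known, and sex moves with genotype, the difference is given as a description of the 6 libraries. The ratio was 3.16-fold without wild-type replicate 2 and 3.42-fold among the collagen-positive cells that met the other limits. Among all cells past the general limits it was 3.14-fold, at 2.20%, 5.84% and 1.60% against 0.808%, 1.02% and 1.24%. It was 7.01-fold when the cells with Prg4 described below were left out of the Cxcl5 Saa3 cells, with 14.8%, 26.8% and 7.36% against 2.61%, 1.89% and 2.47%. That alternative was added after seeing the data and kept the cells with Prg4 among the collagen-positive cells. Intervals cover counting error only.

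**Figure D1:**
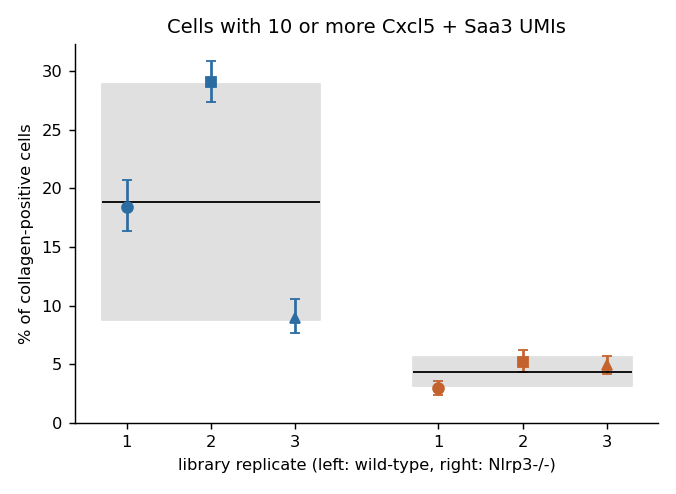
Share of Cxcl5 Saa3 cells among the collagen-positive cells of each library, in percent, with Wilson 95% intervals as bars; the line and the grey band are the mean and SD of each group of 3 libraries. The wild-type libraries sit at 8.96% to 29.1% and the Nlrp3-/- libraries at 2.93% to 5.18%.

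Cells of other types also held UMIs of Cxcl5 and Saa3. Among endothelial cells (Cdh5 above 0 and no Ptprc), 3.79%, 6.69% and 1.49% reached 10 UMIs of both genes together in the wild-type libraries and 2.47%, 1.41% and 1.87% in the Nlrp3-/- libraries. The same count in all collagen-positive cells, before the limits on Col2a1, Tnmd and division, was 27.3%, 43.0% and 12.4% in the wild-type libraries and 4.58%, 7.97% and 8.10% in the Nlrp3-/- libraries. The share in collagen-positive cells lay above that in endothelial cells in all 6 libraries, and the gap was smallest in Nlrp3-/- replicate 1. Median depth was 9750 to 12383 UMIs in the endothelial cells of 5 libraries and 3698 in those of Nlrp3-/- replicate 1, against 12834 to 16640 and 4299 in the collagen-positive cells. In barcodes with at most 100 UMIs, Cxcl5 stood at 108, 347 and 73.1 CPM in the wild-type libraries and at 58.2, 45.2 and 62.6 CPM in the Nlrp3-/- libraries, without overlap of the groups. Saa3 in the same barcodes stood at 136, 578 and 283 CPM and at 567, 112 and 84.2 CPM, with overlap, and Nlrp3-/- replicate 1, whose share was the lowest, was near the top of that range. Whether the UMIs in endothelial cells and cells with Ptprc came from free RNA or from the cells themselves was not tested. The part of free RNA in the difference was not tested either. With every cell thinned to 2000 UMIs and a limit of 5 UMIs, the share was 8.84%, 18.3% and 4.41% in the wild-type libraries against 2.26%, 3.09% and 2.05% in the Nlrp3-/- libraries, 4.26-fold higher. At the limit of the rule lay 137 cells with 10 to 12 UMIs just inside and 192 cells with 7 to 9 UMIs just outside.

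The rule genes themselves describe what was chosen. Cxcl5 stood at 1464, 1940 and 1715 CPM in the wild-type and 2078, 1835 and 1255 CPM in the Nlrp3-/- Cxcl5 Saa3 cells, against 68.1 to 556 CPM in the other collagen-positive cells. Saa3 stood at 1410, 3129 and 2260 CPM and at 811, 2561 and 1475 CPM, against 36.2 to 540 CPM. The genotype ranges overlapped for both genes. The pair did not always occur together: 25.2% to 41.2% of the wild-type cells and 41.3% to 64.1% of the Nlrp3-/- cells had no Saa3 UMI, while 3.44% to 5.97% and 11.9% to 24.0% had no Cxcl5 UMI. At least 5 UMIs of each were found in 31.7%, 52.1% and 44.0% of the wild-type and 13.0%, 24.0% and 23.2% of the Nlrp3-/- cells, where no value of 1 group reached the other. Within libraries, Spearman's rho between the 2 counts over cells ran from -0.60 to 0.02, over cells that share a library and were chosen by the sum of both counts.

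Fibroblast markers stood near their levels in the other collagen-positive cells, which were chosen by the same collagen genes. Likeness to that mixture cannot by itself show that the Cxcl5 Saa3 cells are fibroblasts. The 10 fibroblast markers had a median log2 difference of -0.003 between the Cxcl5 Saa3 cells and the other collagen-positive cells of the same library, and summed to 7727 to 15527 CPM against 8700 to 13530 CPM. Pdgfra, a receptor of mesenchymal progenitors and fibroblasts, stood at 165, 215 and 217 CPM in the wild-type and 272, 204 and 243 CPM in the Nlrp3-/- cells, above the 113 to 149 CPM of the other cells in every library. Fbln1 was likewise higher in all 6 libraries, Col6a1 and Col6a2, chains of collagen VI, were lower in all 6, and the other 6 markers went both ways. The markers of most other types had lower summed ranges than in the other collagen-positive cells. Endothelial markers summed to 6.43 to 15.4 CPM against 8.51 to 30.2 CPM, T and B cell markers to 3.402 to 11.5 CPM against 7.79 to 16.4 CPM, and leukocyte markers to 20.6 to 94.99 CPM against 27.0 to 175 CPM. Macrophage markers summed to 127 to 899 CPM against 191 to 1426 CPM, while neutrophil markers summed to 408 to 1217 CPM against 393 to 1161 CPM and were higher in every library but Nlrp3-/- replicate 1. Pericyte and smooth muscle markers summed to 51.2 to 173 CPM against 350 to 513 CPM. Other lists went the other way in some or all libraries. Markers of marrow reticular stroma, Cxcl12 among them, summed to 607 to 1663 CPM against 273 to 733 CPM and were higher in every library. Cxcl12 made up most of that sum, with 1108 of 1274 CPM in wild-type replicate 1. Of the 9 markers 3 reached 20 CPM, and 2 of these were higher in all 6 libraries. Lepr had a UMI in 0% to 1.09% of the Cxcl5 Saa3 cells of a library and Adipoq in 0% to 2.88%. Synovial lining markers, Prg4 among them, summed to 551 to 5636 CPM against 541 to 1404 CPM. Their sum was lower in wild-type replicates 2 (678 against 1191 CPM) and 3 (1191 against 1207 CPM). It was near equal in Nlrp3-/- replicate 1 (551 against 541 CPM) and higher in the remaining libraries. Adipocyte markers summed to 203 to 941 CPM against 202 to 668 CPM, and were lower in Nlrp3-/- replicate 3 alone (238 against 293 CPM). Ptprc and Cdh5 were at 0 by the rule.

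Genes were then set against the other collagen-positive cells library by library, as a description without a test, because the choice of cells and the genes come from the same counts. These other cells included cells with at least 10 UMIs of Cxcl5 and Saa3 that failed the limits on Col2a1, Tnmd or division. Such cells made up 10.8%, 19.6% and 3.82% of the others in the wild-type libraries and 1.70%, 2.94% and 3.35% in the Nlrp3-/- libraries. A log2 difference is that of CPM plus 5 in the summed cells, and 6136 genes that the rule did not use reached 20 CPM. Of these, 7 genes (0.114%) were at least 2-fold higher in the Cxcl5 Saa3 cells of all 6 libraries and 42 (0.684%) at least 2-fold lower. At any size, 567 genes (9.24%) were higher in all 6 libraries and 857 (14%) lower, with a median over all genes of -0.02. The 7 were Chl1, Hp, Tnfsf11, Cyp1b1, Slpi, Cxcl12 and Il4ra. Against only those other cells that also met the limits on Col2a1, Tnmd and division, 12 genes were higher and 23 lower, 4 and 11 of them shared with the first comparison: Chl1, Hp, Slpi and Tnfsf11 were in both, Cxcl12 had a log2 difference of 0.34 in its lowest library, and Cyp1b1 and Il4ra of 0.96 in theirs. The 8 that joined were Ccl2, Ccl7, Il6, Sod2, Ereg, Fgf7, Il13ra2 and Slc16a1. Without wild-type replicate 2, 20 genes were 2-fold higher in place of 7, all 7 among them, and Cxcl1, Ccl2, Ccl7, Il6, Sod2 and Mmp3 were part of the 20. That library had the highest Cxcl5 in barcodes with at most 100 UMIs. It also had the largest share of others with at least 10 UMIs of Cxcl5 and Saa3. The part of either in this change was not tested. Leaving out any other library gave 7 to 9.

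**Figure D2:**
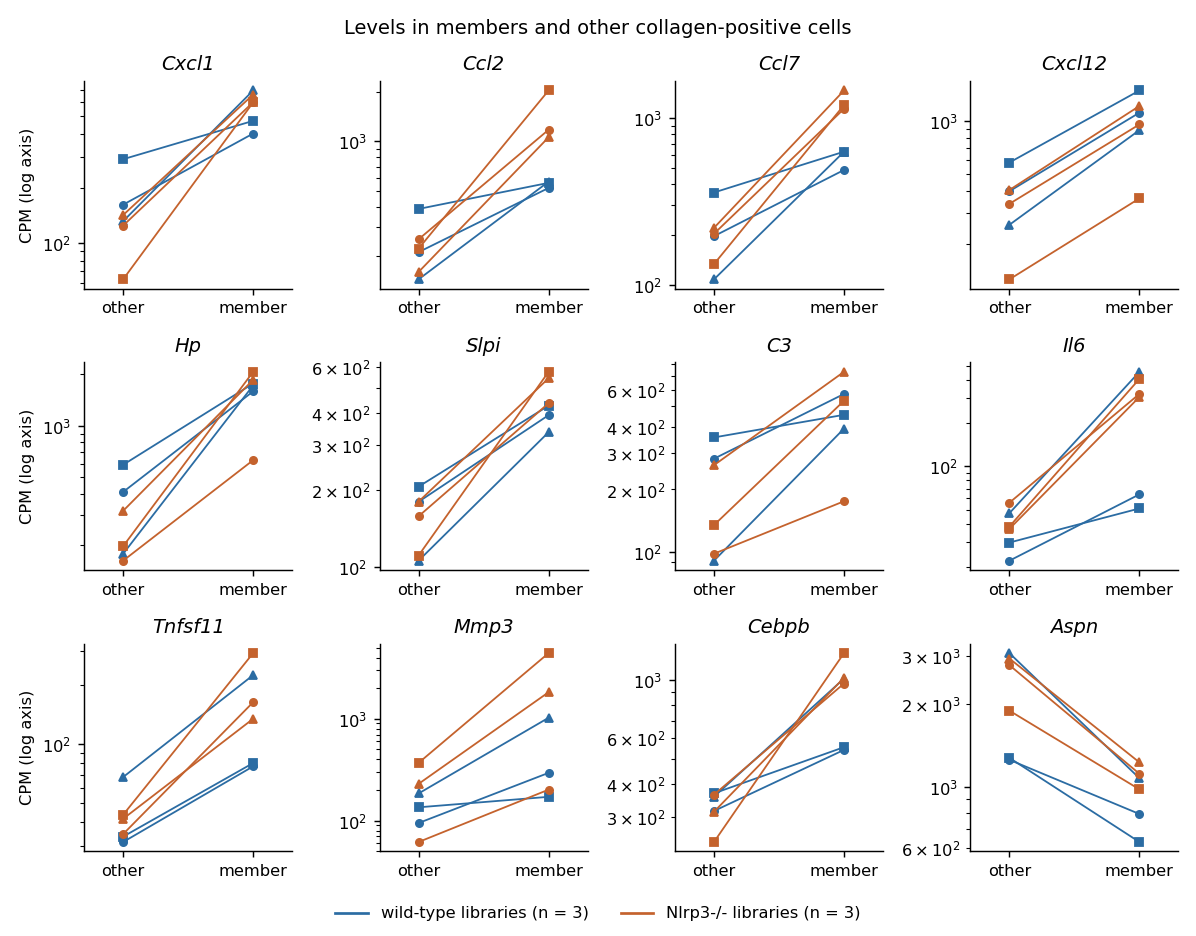
Levels of 12 genes in CPM (log axis) in the other collagen-positive cells and in the Cxcl5 Saa3 cells (member) of each library, joined by a line; circles, squares and triangles are replicates 1, 2 and 3. Lines for 11 genes rise in all 6 libraries, and those of Aspn fall, from 1254 to 3072 CPM down to 629 to 1227 CPM.

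Several chemokine genes were higher in the same cells. All 3 neutrophil-attracting CXC chemokine genes that reached 20 CPM, Cxcl1, Cxcl2 and Cxcl3, were higher in all 6 libraries, with a median log2 difference of 1.99. Cxcl1, a ligand of CXCR2 like CXCL5, stood at 402, 472 and 694 CPM in the wild-type and 598, 596 and 658 CPM in the Nlrp3-/- cells, against 163, 290 and 132 CPM and 125, 63.1 and 143 CPM in the other cells. The Cxcl5 Saa3 cells were above the others in each library without overlap of the ranges, the least so in wild-type replicate 2. Of 8 CC chemokine genes, 3 were higher in all 6 libraries (Ccl2, Ccl7 and Ccl20). Ccl20 reached 20 CPM through the Nlrp3-/- cells alone, at a mean of 99.0 ± 148 CPM (SD, n = 3) against 4.38 ± 2.77 CPM (SD, n = 3) in wild-type. Ccl4 was lower in all but wild-type replicate 3, and Ccl5 and Ccl8 went both ways. Ccl2, the main attractant of monocytes, stood at 521, 559 and 569 CPM in the wild-type and 1175, 2036 and 1058 CPM in the Nlrp3-/- cells, against 145 to 388 CPM in the others. Ccl7, a neighbour of Ccl2 on chromosome 11 with a similar role, stood at 489, 629 and 629 CPM and at 1138, 1198 and 1466 CPM, against 108 to 358 CPM. Both were higher in each Nlrp3-/- library than in any wild-type library within the Cxcl5 Saa3 cells, as were 10.5% of all genes tested. Neither passed there (edgeR adjusted p = 0.154 and 0.133). In the other collagen-positive cells their log2 fold changes from wild-type to Nlrp3-/- were -0.29 and -0.32. Cxcl12, which was part of how these cells were named but not of the rule, stood at 1108, 1479 and 883 CPM and at 951, 363 and 1209 CPM, against 399, 579 and 258 CPM and 338, 127 and 405 CPM. Its log2 difference stayed between 1.35 and 1.76 in the 6 libraries although Nlrp3-/- replicate 2 was low in both kinds of cell. Cxcl14, a chemokine of resting epithelia and stroma, stood at 297, 151 and 245 CPM and at 79.6, 434 and 113 CPM, against 25.8 to 114 CPM.

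Acute phase and antimicrobial secretions made up the second group. Of 8 such genes beside Saa3, 6 were higher in all 6 libraries, 2 of them by 2-fold or more (Hp and Slpi), with a median log2 difference of 1.16. Hp encodes haptoglobin, which binds free haemoglobin, and stood at 1588, 1765 and 1720 CPM in the wild-type and 629, 2066 and 1854 CPM in the Nlrp3-/- cells, against 410, 591 and 178 CPM and 163, 198 and 318 CPM in the other cells. Nlrp3-/- replicate 1 was the low library, and the 2 kinds of cell did not overlap. Slpi, a secreted inhibitor of neutrophil elastase, stood at 391, 425 and 335 CPM and at 435, 577 and 544 CPM, against 106 to 206 CPM. Serpina3n, another secreted protease inhibitor, stood at 82.7, 119 and 79.7 CPM and at 46.1, 30.8 and 45.7 CPM, against 7.04 to 51.7 CPM. Here each wild-type library was above each Nlrp3-/- library, as for 5.26% of all genes tested. The difference did not pass (edgeR adjusted p = 0.103). Lcn2, which sequesters bacterial iron carriers, stood at 68.1 to 297 CPM against 26.5 to 121 CPM, but a UMI of it was also in 23.5% to 45.7% of endothelial cells against 27.2% to 65.6% of the Cxcl5 Saa3 cells. In Nlrp3-/- replicate 1 the endothelial share was the higher one, 35.3% against 27.2%, although Lcn2 was higher there in CPM than in the other collagen-positive cells. Of 9 complement genes, 6 were higher in all 6 libraries, with a median of 0.62. C3, the central complement component, stood at 573, 455 and 391 CPM and at 176, 532 and 732 CPM, against 280.6, 355 and 91.2 CPM and 98.5, 135 and 261 CPM, so the ranges overlapped between libraries but not within one.

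Cytokines, receptors and their factors followed. Of 7 cytokine genes, 3 were higher in all 6 libraries, with a median of 0.59. Il6, a driver of the acute phase response, stood at 63.8 and 50.9 CPM in wild-type replicates 1 and 2 but at 454 CPM in replicate 3, and at 319, 405 and 304 CPM in the Nlrp3-/- cells, against 22.1 to 55.8 CPM in the others. Tnfsf11 encodes RANKL, the cytokine that drives osteoclast formation, and stood at 77.1, 80.1 and 226 CPM and at 164, 293 and 135 CPM, against 31.6 to 67.9 CPM. For both genes wild-type replicates 1 and 2 were the low pair, and replicate 3 lay with the Nlrp3-/- libraries or above them. Il1b stood at 5.95 to 96.9 CPM and Tnf at 0.541 to 9.68 CPM, near the 4.28 to 127 CPM and 2.06 to 19.9 CPM of the other cells. Of 14 receptor genes, 10 were higher in all 6 libraries, with a median of 0.57. Il4ra, the receptor chain shared by IL-4 and IL-13, stood at 161, 187 and 95.9 CPM and at 94.0, 140 and 113 CPM, against 25.0 to 88.5 CPM. Il1r1, the receptor for interleukin-1, stood at 215, 245 and 208 CPM and at 271, 186 and 248 CPM, against 65.2 to 136 CPM, so each library's Cxcl5 Saa3 cells were above every library of the others. Il6st, the signalling chain of the interleukin-6 receptor family, stood at 229 to 302 CPM against 114 to 184 CPM.

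Of 15 NF-kappaB and C/EBP factors and feedback genes, 10 were higher in all 6 libraries, with a median log2 difference of 0.51. Cebpb, the C/EBP factor of the acute phase response, stood at 541, 554 and 1012 CPM in the wild-type and 969, 1266 and 1019 CPM in the Nlrp3-/- cells, against 240.5 to 369 CPM in the others, and Cebpd at 279 to 544 CPM against 157 to 264 CPM. Nfkbia, an inhibitor that NF-kappaB induces, stood at 236 to 446 CPM against 134 to 329 CPM. Of 8 JAK-STAT and SOCS genes, 4 were higher in all 6 libraries with a median of 0.19, and none of 5 interferon-stimulated genes was, with a median of 0.21. Of 8 oxidative stress and metal-handling genes, 5 were higher in all 6 libraries with a median of 1.04. Sod2, the mitochondrial superoxide dismutase, stood at 396, 397 and 540 CPM and at 553, 988 and 547 CPM, against 130.1 to 217 CPM, and the metallothionein gene Mt2 at 395 to 2539 CPM against 139 to 517 CPM. Cyp1b1, a cytochrome P450 of steroid and hydrocarbon metabolism, stood at 272, 350 and 166 CPM and at 301, 221 and 198 CPM, against 39.8 to 134 CPM. Chl1, a cell adhesion molecule of the L1 family, stood at 183, 200.2 and 189 CPM and 68.1, 302 and 294 CPM, against 7.71 to 66.3 CPM, with Nlrp3-/- replicate 1 the low library in both kinds of cell.

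Matrix genes divided by role. Of 14 matrix-degrading enzymes and inhibitors, 8 were higher in all 6 libraries and 1 lower, with a median of 0.31, and of 27 matrix-building genes 2 were higher and 10 lower, with a median of -0.46. Mmp3, stromelysin, stood at 295, 171 and 1024 CPM in the wild-type and 202, 4417 and 1824 CPM in the Nlrp3-/- cells, against 61.7 to 369 CPM in the others. Adamts5, an aggrecan-cleaving protease, stood at 159, 178 and 223 CPM and at 290, 313 and 302 CPM, against 55.9 to 95.6 CPM. Mmp3 varied with the library and with Prg4, as described below, while Adamts5 was above every value of the other cells in each library. In the Cxcl5 Saa3 cells without Prg4, Mmp3 stood at 44.5 and 44.8 CPM in wild-type replicates 1 and 2, below the range of the other cells. Aspn, an extracellular proteoglycan that binds collagen, stood at 796, 629 and 1074 CPM and at 1115, 978 and 1227 CPM, below the 1254 to 3072 CPM of the others. Postn, periostin, stood at 2222 to 4047 CPM against 2971 to 6543 CPM, lower in each library though the ranges overlapped. Fmod, fibromodulin of tendon matrix, was the gene of the 27 on the matrix-building list at least 2-fold lower in all libraries, at 30.7 to 132 CPM against 114 to 1166 CPM; the rule limited Tnmd, a tendon gene, and Fmod was not at least 2-fold lower in all libraries against the other cells that met the same limits. Eln, elastin, was the gene of that list so called in that comparison, with log2 differences of -3.21 to -1.35. Col3a1, used by the rule, differed by -0.02 to 0.60 on the log2 scale. The other genes that led the 42 lower ones were those of bone, cartilage, pericytes and dividing cells: Ibsp, Snorc, Rgs5, Col11a2, Ube2c, Acan, Cenpf, Alpl and Chad. Col2a1, Tnmd and the division genes were limited by the rule, and of these 9 only Rgs5, a pericyte gene, was also at least 2-fold lower in all libraries against the other cells that met the same limits, with log2 differences of -5.27 to -2.78.

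The remaining lists were closer to the other cells. Of 17 growth factor and morphogen genes, 4 were higher in all 6 libraries and 2 lower, with a median log2 difference of 0.00. Igf1, an anabolic growth factor, stood at 271, 170 and 432 CPM in the wild-type and 338, 916 and 541 CPM in the Nlrp3-/- cells, against 342 to 1109 CPM in the others, lower in each library. Of 7 prostaglandin and nitric oxide genes 1 was higher and 1 lower in all 6 (median 0.48), and Ptgs2, the inducible cyclooxygenase, stood at 57.8, 67.0 and 347 CPM and at 136, 122 and 225 CPM, against 47.1 to 189 CPM. Of 7 adhesion genes, 10 glycolysis genes and 13 immediate-early genes, 1 each was higher in all 6 libraries (medians 0.24, 0.20 and 0.19), and none of 7 contractile genes was higher or lower throughout (median -0.10). Of 3 inflammasome genes that reached 20 CPM, 1 was higher and 1 lower (median 0.01). These counts lie nearer the 9.24% and 14% of all genes than those of the chemokine, acute phase and receptor lists.

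The levels also varied with the number of Cxcl5 and Saa3 UMIs on either side of the limit. Collagen-positive cells that met the other limits were grouped by their Cxcl5 and Saa3 UMIs, which also rise with depth. Hp stood at 108 to 356 CPM in cells with none, 204 to 771 CPM with 1 to 4, 471 to 1101 CPM with 5 to 9, 417 to 1531 CPM with 10 to 19, 618 to 2039 CPM with 20 to 49 and 1091 to 2649 CPM with 50 or more. Cxcl1 stood at 80.4 to 217 CPM in cells with none and 351 to 1147 CPM in those with 50 or more. Aspn was lower at the upper end, at 1845 to 3031 CPM with none and 475 to 872 CPM. Cxcl12 stood at 248 to 438 CPM in cells with none, 543 to 983 CPM with 5 to 9 and 413 to 1790 CPM with 50 or more, and Nlrp3-/- replicate 2 stood at 543 CPM with 5 to 9 and 281 CPM with 10 to 19. In the narrower bins of 7 to 9 and 10 to 12 UMIs, of 7 to 54 cells a library, the directions were mixed: Cxcl12 stood at 310 and 615 CPM in Nlrp3-/- replicate 2 and at 759 and 290 CPM in wild-type replicate 3, and Hp there at 862 and 208 CPM. The cells just under the limit thus lay between the extremes for Hp, Cxcl1 and Aspn. Median depth rose over these bins from 9520 to 14985 UMIs without either gene to 15956 to 19265 UMIs at 50 or more in 5 libraries, and from 3427 to 14885 UMIs in Nlrp3-/- replicate 1; its part in the trend was not tested.

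**Figure D3:**
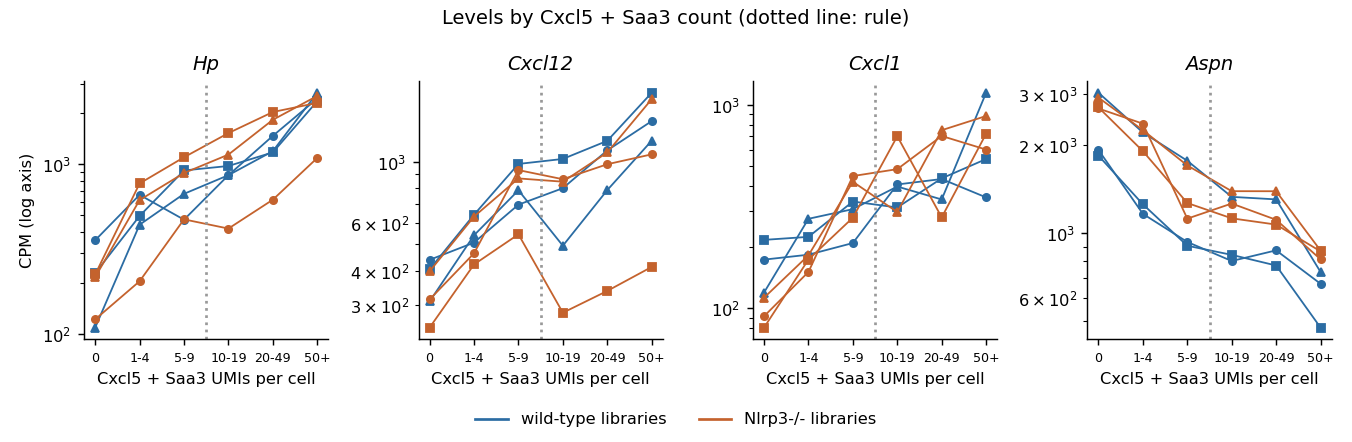
Levels of Hp, Cxcl12, Cxcl1 and Aspn in CPM (log axis) by the number of Cxcl5 and Saa3 UMIs in a cell, 1 line per library; circles, squares and triangles are replicates 1, 2 and 3, and the dotted line marks the limit of 10 UMIs. Hp climbs from 108 to 356 CPM to 1091 to 2649 CPM between the outer bins, and Aspn is lower at 50 or more UMIs than at 0 in every library.

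The cells held a small part of the RNA and a larger part of several secreted signals. They carried 2.77% to 10.3% of the UMIs of all cells past the limits in the wild-type libraries and 1.54% to 2.12% in the Nlrp3-/- libraries. Cxcl5, which the rule used, had 41.2% to 51.2% and 31.2% to 45.4% of its UMIs in them, and Saa3 22.0% to 52.9% and 3.71% to 41.4%. Among genes the rule did not use, the share for Cxcl14 was 31.4% to 37.2% in wild-type and 7.36% to 12.5% in Nlrp3-/- libraries, for Mmp3 29.1% to 30.5% and 9.24% to 29.7%, and for Tnfsf11 18.4% to 37.8% and 11.9% to 20.9%. Cxcl12 had 16.9% to 36.8% and 5.87% to 10.8% there, without overlap of the groups, and Ccl7 19.95% to 28.2% and 11.2% to 19.8%. For Il6 the shares were 11.99% to 23.8% and 8.03% to 15.5%, with overlap. Most UMIs of these 6 genes thus lay outside the Cxcl5 Saa3 cells. The other collagen-positive cells held more of each than the Cxcl5 Saa3 cells did, apart from Cxcl14 in wild-type replicate 1 and Cxcl12 and Tnfsf11 in wild-type replicate 2: they held 31.0% to 47.5% of the Cxcl12 UMIs in wild-type and 35.4% to 55.6% in Nlrp3-/- libraries, 42.2% to 50.6% and 43.0% to 57.0% of Mmp3, and 12.9% to 29.7% and 23.5% to 28.9% of Il6. The part in the Cxcl5 Saa3 cells was smaller still for some inflammatory genes, since Cxcl2 had 0.348% to 1.40% and 0.332% to 0.353% of its UMIs in these cells and Lcn2 0.205% to 0.996% and 0.0838% to 0.365%. The shares follow the number of cells as well as the level per cell.

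**Figure D4:**
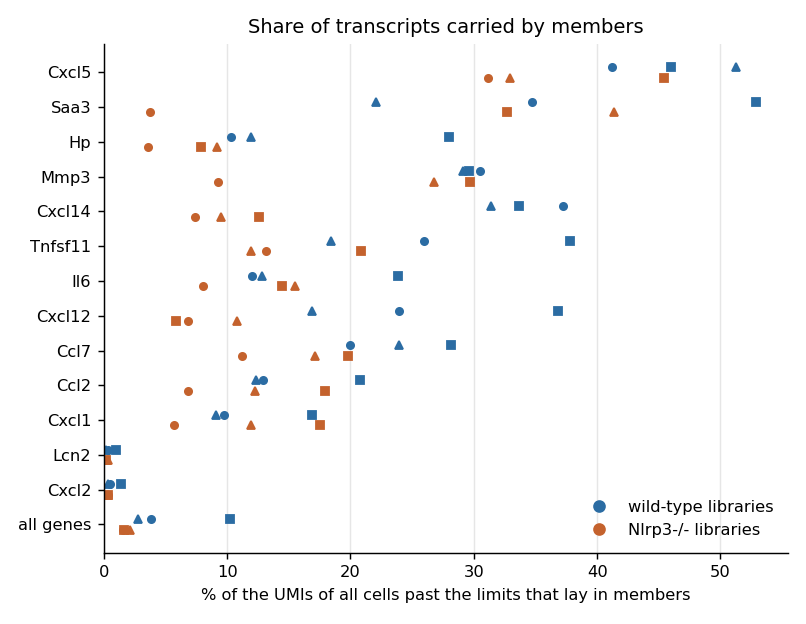
Percent of the UMIs of all cells past the limits that lay in the Cxcl5 Saa3 cells (members), for 13 genes and for all genes together; blue marks are wild-type and orange marks Nlrp3-/- libraries, with circles, squares and triangles for replicates 1, 2 and 3. Cxcl5 lies at 31.2% to 51.2%, Cxcl2 and Lcn2 at 0.0838% to 1.40%, and all genes together at 1.54% to 10.3%.

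The Cxcl5 Saa3 cells were not uniform. Prg4 encodes lubricin, the lubricant of synovial lining and tendon surfaces, and cells with Prg4 at 0.1% of their UMIs or more made up 19.9%, 7.99% and 17.9% of the wild-type and 10.9%, 63.5% and 49.7% of the Nlrp3-/- Cxcl5 Saa3 cells (44, 58 and 24 cells, and 10, 66 and 75 cells). In the other collagen-positive cells the share was 12.7% to 15.3% and 5.701% to 17.8%. Nlrp3-/- replicates 2 and 3 were thus the high pair, and replicate 1 sat with the wild-type libraries. Mmp3 stood at 1154, 1462 and 4333 CPM in the wild-type and 1077, 4893 and 2900 CPM in the Nlrp3-/- cells with Prg4, against 44.5, 44.8 and 235 CPM and 86.8, 3214 and 381 CPM in those without. Cxcl12 went the other way, at 356, 305 and 440 CPM and 116, 205 and 788 CPM with Prg4 against 1327, 1594 and 989 CPM and 1060, 763 and 1772 CPM without. Within each library Mmp3 was higher and Cxcl12 lower in the cells with Prg4. The other collagen-positive cells with Prg4 had Mmp3 at 355, 602 and 811 CPM in the wild-type and 399, 1495 and 725 CPM in the Nlrp3-/- libraries. These values were above those of the Cxcl5 Saa3 cells without Prg4 in every library but Nlrp3-/- replicate 2. Cxcl12 was low there too, at 217, 243 and 135 CPM and 109, 119 and 323 CPM. High Mmp3 with low Cxcl12 was thus not particular to the Cxcl5 Saa3 cells. Hp stood at 473 to 1878 CPM with Prg4 and 628 to 2544 CPM without, lower with Prg4 in 5 of 6 libraries. Nlrp3-/- replicate 1 had 10 cells with Prg4, which limits its values. The Prg4 level that divides the cells was chosen after values had been seen, so no test is attached.

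**Figure D5:**
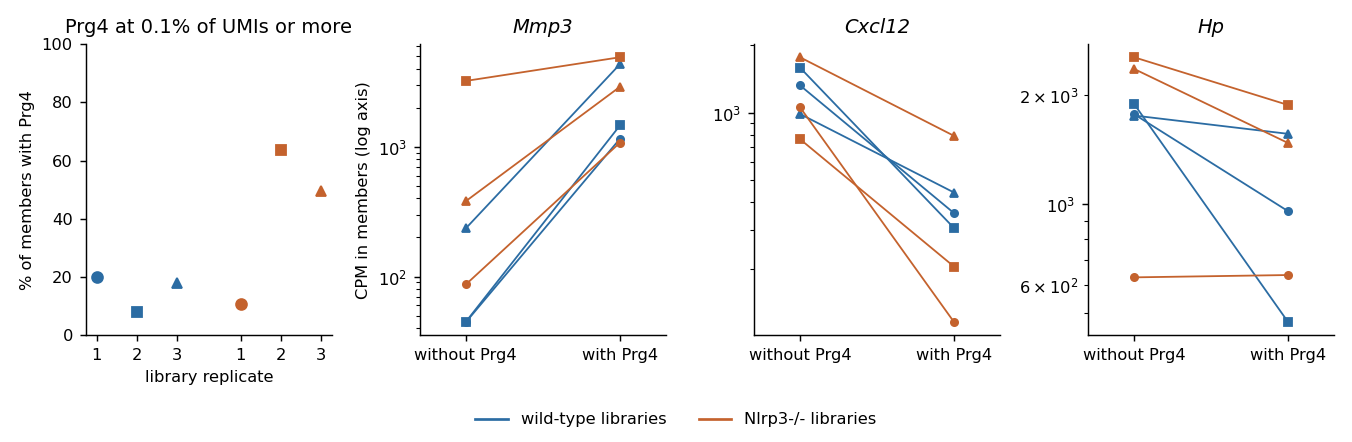
Left, the percent of Cxcl5 Saa3 cells with Prg4 at 0.1% of UMIs or more in the wild-type (1 to 3, left) and Nlrp3-/- (1 to 3, right) libraries; right, levels of Mmp3, Cxcl12 and Hp in CPM (log axes) in those cells without and with Prg4, joined within a library. Mmp3 is higher and Cxcl12 lower in the cells with Prg4 in all 6 libraries.

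Genotype was compared within the Cxcl5 Saa3 cells over the 6 libraries, with UMIs summed per library (1042192 to 12289865 UMIs) and fitted with edgeR's quasi-likelihood method. Of 10370 genes tested, 15 (0.145%) had an adjusted p under 0.05, with 4 of them (0.0386%) up and 11 (0.106%) down in the Nlrp3-/- cells, and 1080 had an unadjusted p under 0.05. The 4 higher were Xist and Tsix of the X chromosome, Thg1l and the predicted gene Gm8797, and the 11 lower were Ddx3y, Eif2s3y, Uty and Kdm5d of the Y chromosome, Tpm3-rs7, Lyrm7, Nes, Ifit1, Nmnat1, Wdfy1 and the predicted gene Gm43305. Thg1l, a tRNA-modifying enzyme gene, stood at 3.97, 6.35 and 6.96 CPM in wild-type and 37.4, 29.2 and 30.6 CPM in Nlrp3-/- cells (log2 fold change 2.37, SE 0.26, edgeR adjusted p = 0.00532), without overlap. It passed in 11 of 13 alternatives, with a highest edgeR adjusted p of 0.0638. Thg1l (chr11:45946843-45955494) and Lyrm7 (chr11:54826866-54860916) lie on the chromosome of Nlrp3 (chr11:59541568-59566956), and both were also called in the other collagen-positive cells, as were Tpm3-rs7 on chromosome 14, Nmnat1 on chromosome 4 and the genes of the X and Y chromosomes just named. In those cells 19 of 14633 genes (0.13%) passed, 6 up (0.041%) and 13 down (0.0888%). Tpm3-rs7, a tropomyosin-like gene that may share reads with Tpm3, stood at 86.6, 41.1 and 106 CPM in wild-type and 0, 0.541 and 1.13 CPM in Nlrp3-/- cells (log2 fold change -6.76, SE 0.60, edgeR adjusted p = 0.0048). It too passed in 11 of 13 alternatives, with a highest edgeR adjusted p of 0.0629 when 1 library was left out. Nlrp3 itself had 8, 104 and 8 UMIs in the wild-type Cxcl5 Saa3 cells and 0 in each Nlrp3-/- library, at least 2.43-fold lower against a floor of 3 counts per library. Leaving out Nlrp3-/- replicate 2 or 3 gave 4 calls each, 4 and 3 of them among the 15, and leaving out wild-type replicate 3 or Nlrp3-/- replicate 1 gave 27 and 34.

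Interferon-stimulated genes were the list with a called member. Ifit1, an interferon-induced binder of foreign RNA, stood at 23.3, 14.7 and 14.3 CPM in wild-type and 2.88, 4.87 and 3.402 CPM in Nlrp3-/- cells (log2 fold change -2.27, SE 0.35, edgeR adjusted p = 0.0451). All wild-type values were above all Nlrp3-/- values, but the call was lost in 9 of 13 alternatives, over which the adjusted p of edgeR or DESeq2 ran from 4.05e-06 to 0.374. Of the 13 interferon-stimulated genes tested, 1 was lower, 0 higher and 11 had a negative fold change, as did 49.6% of all genes tested, with a median log2 of -0.86 against 0.00 over all genes. In the other collagen-positive cells 15 of 15 had a negative fold change, against 43.9% of all genes, with a median of -0.93 against 0.05 and no call, and Ifit1 stood at -1.17 there (edgeR adjusted p = 0.41). Cxcl9, an interferon-gamma-induced chemokine for T cells, had 37, 137 and 69 UMIs in the wild-type Cxcl5 Saa3 cells. In the Nlrp3-/- Cxcl5 Saa3 cells it had none, at least 8.45-fold lower against the floor of 3 counts. It entered the test through the wild-type sums alone and did not pass (edgeR adjusted p = 0.103, range over 13 alternatives 4.52e-09 to 0.374). The other collagen-positive cells held 277, 752 and 269 UMIs of Cxcl9 in wild-type and 155, 112 and 278 in Nlrp3-/- libraries. Its log2 fold change there was -1.74 (edgeR adjusted p = 0.364).

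No gene of the remaining lists passed within the Cxcl5 Saa3 cells. Cxcl5 and Saa3 chose the cells, so their log2 fold changes of -0.08 and -0.57 are given with no test. Hp differed by a log2 of -0.24, Cxcl12 by -0.55, Cxcl1 by 0.16 and Slpi by 0.34 (edgeR adjusted p = 0.546 to 0.854). Ccl2 (log2 fold change 1.29, SE 0.26, edgeR adjusted p = 0.154) and Ccl7 (1.04, SE 0.20, edgeR adjusted p = 0.133) had higher values in each Nlrp3-/- library, and Serpina3n (-1.30, SE 0.23, edgeR adjusted p = 0.103) lower values, without overlap of the groups. Each of these 3 passed in 2 of 13 alternatives. Over all genes tested, 10.5% had every Nlrp3-/- library above every wild-type library and 5.26% below. Prg4 (1.91, SE 0.95, edgeR adjusted p = 0.532) and Mmp3 (2.06, SE 1.22, edgeR adjusted p = 0.583) followed Nlrp3-/- replicates 2 and 3. Prg4 passed in 1 of 13 alternatives, without Nlrp3-/- replicate 1 (edgeR adjusted p = 0.0304), and Mmp3 in none. The 13 include the fit with the Prg4 cells left out, which removes the Prg4 signal by choice and is no check on these 2 genes. With 1 library left out their log2 fold changes were 1.47 to 2.43 and 0.99 to 3.10, the lowest without Nlrp3-/- replicate 2 in both. The 7 contractile genes all had negative fold changes, as did 49.6% of all genes tested, with a median of -1.36 and 4 without overlap, and none passed. In the other collagen-positive cells all 7 were negative too, with a median of -0.54, 2 without overlap and none called. Over all genes tested in those cells, 43.9% were negative, and 4.86% had every Nlrp3-/- library below every wild-type library. Acta2, smooth muscle actin, stood at 923, 1094 and 1391 CPM in wild-type and 904, 222 and 295 CPM in Nlrp3-/- cells (log2 fold change -1.36, SE 0.52, edgeR adjusted p = 0.472), where Nlrp3-/- replicate 1 sat near the wild-type libraries.

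Whether the genotype difference itself differed between the Cxcl5 Saa3 cells and the other collagen-positive cells was tested in 1 edgeR model. Of 14338 genes, 0 (0%) passed and 922 had an unadjusted p under 0.05; DESeq2 was not run here. Ccl2 had a difference of differences of 1.43 (SE 0.46, edgeR adjusted p = 0.746), Tnfsf11 of 0.79 (SE 0.25, edgeR adjusted p = 0.689) and Ifit1 of -1.10 (SE 0.42, edgeR adjusted p = 0.733). None of these is thereby shown to differ or to be alike. In all collagen-positive cells summed, where more Cxcl5 Saa3 cells and more RNA per cell cannot be told apart, 19 of 14953 genes (0.127%) passed, 6 up (0.0401%) and 13 down (0.0869%). Cxcl5 stood at 501, 995 and 249 CPM in wild-type and 227, 165 and 164 CPM in Nlrp3-/- libraries (log2 fold change -1.73), and Saa3 at 393, 1361 and 293 CPM and at 76.5, 221 and 124 CPM (-2.34). This sum does not use the limit on the 2 genes. Both are still given with no test, because the Cxcl5 Saa3 cells were chosen for description with these values known. With 1 library left out the log2 fold changes ran from -2.11 to -1.10 for Cxcl5 and from -2.85 to -1.35 for Saa3. The smallest in both was without wild-type replicate 2. Neither gene overlapped between the groups; over all genes of this fit 4.71% had every Nlrp3-/- library below every wild-type library and 15.1% above. Hp (-1.17, SE 0.45, edgeR adjusted p = 0.399) and Cxcl12 (-0.92, SE 0.50, edgeR adjusted p = 0.454) did not pass.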

How the data were processed

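Single-cell RNA from 6 libraries was measured with droplet-based 3′ chemistry (Chromium Next GEM v3). Per the labels, enthesis tissue was pooled. The authors deposited raw UMI counts, 1 matrix a library, whose header names Cell Ranger 4 while the submitters' processing notes name Cell Ranger 2.1.1 and build mm10. The counts were used as deposited, before any cell calling by the authors, with no ambient correction and no doublet caller; cells with 2 or more UMIs of Tyrobp, Laptm5 and Cd52, or with over 3 times the median depth, were left out as alternatives. The members, lists and rules were chosen with earlier results of these data known. Cells were not treated as replicates. UMIs were summed per library and tested with edgeR 4.0.16 (TMM, filterByExpr, quasi-likelihood, R 4.3.3) without a block, with Benjamini-Hochberg adjustment over all genes tested at 0.05; DESeq2 1.42.0, RLE scaling, no filter, a replicate block and leaving out each library were alternatives. Shares were compared with exact permutation tests, and scipy 1.17.1 gave the Wilson intervals. Members were set against other collagen-positive cells on log2(CPM + 5), called at 2-fold in all 6 libraries with a mean of at least 20 CPM in the higher group; the genes named from this are up to 15 higher and 10 lower by median difference, and all genes of the 20 lists could be named. Genotype genes were named by size among calls and the others after their values were seen. The scripts were checked on simulated counts. Wilson intervals cover 95%. Positions are from GENCODE for GRCm38. Same-numbered libraries did not deviate together (correlations -0.07, -0.29 and -0.13 within the Cxcl5 Saa3 cells), so the numbers were not taken as pairs.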

Additional observations from a re-analysis of the deposited data

How the results depend on the processing

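The share of Cxcl5 Saa3 cells was higher in each wild-type library under all 19 alternatives, with the log2 ratio of Nlrp3-/- to wild-type between -2.81 and -1.65, and between -2.45 and -1.66 with 1 library left out. With a Nlrp3-/- library left out the exact permutation p was 0.2. The 10 assignments left cannot give a p under 0.05, so no conclusion is drawn from it. For the main counts, 61 of the values recomputed stayed within the limits set for a change and 35 moved; for named genes 268 stayed, 15 gained and 46 lost the call, and 1 changed sign: Hp within the Cxcl5 Saa3 cells without Nlrp3-/- replicate 1, from -0.24 to 0.133 and uncalled in both, with -0.53 the lowest value when 1 library was left out. Genes called between genotypes within the Cxcl5 Saa3 cells numbered 193 without a filter on low counts, 49 with DESeq2, 4 with the Prg4 cells left out and 4 to 34 with 1 library left out. In the other collagen-positive cells they numbered 29 without the filter, 219 with DESeq2 and 6 to 655 with 1 library left out, the highest without wild-type replicate 3. In all collagen-positive cells they numbered 228 with DESeq2 and 8 to 430 with 1 library left out, again the highest without wild-type replicate 3. The difference of differences gave 6 genes without the filter and 0 to 12 with 1 library left out, the highest without Nlrp3-/- replicate 1. With the replicate block, 9, 8 and 8 genes were called in the Cxcl5 Saa3 cells, the other and all collagen-positive cells, and since the numbers do not pair the libraries this bears on no call. Against the other collagen-positive cells, the genes called at 1.5-fold were 33 higher and 77 lower, 110 in all; those against cells that met the same limits were 12 and 23; thinning to 2000 UMIs gave 27 lower; and with 1 library left out 7 to 20 were higher, 42 to 53 lower and 49 to 73 in all. The cause of these moves was not tested, other than that fewer libraries or cells enter when some are left out. Depth limits Nlrp3-/- replicate 1 most, with 92 Cxcl5 Saa3 cells and 1042192 UMIs in them.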

Other observations

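Dbp and Arntl, genes of the circadian clock, were singled out after their values were seen. Dbp, an output gene of the clock, stood at 22.3, 18.2 and 21.7 CPM in the wild-type Cxcl5 Saa3 cells and at 7.68, 2.70 and 7.94 CPM in the Nlrp3-/- ones (log2 fold change -1.83, edgeR adjusted p = 0.112), and at 51.1, 35.4 and 75.5 CPM against 5.997, 8.69 and 8.33 CPM in the other collagen-positive cells (-2.88, edgeR adjusted p = 0.0482, under the threshold in 6 of 11 alternatives). Arntl, which drives the clock and peaks opposite to Dbp, stood at 7.95, 5.94 and 3.87 CPM in the wild-type and 13.4, 34.1 and 19.3 CPM in the Nlrp3-/- Cxcl5 Saa3 cells (1.82, edgeR adjusted p = 0.154). The groups did not overlap for either gene in these cells, nor for Per2, Per3, Nr1d2 and Tef, but did for Per1, Nr1d1, Npas2, Cry1 and Clock; over all genes tested 10.5% lay wholly above and 5.26% wholly below in the Nlrp3-/- cells. The hour of collection is not given in the sources used here.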
